A study of Mus musculus with 24 samples.

Results

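Expression of 8 genes of adrenergic and cAMP signalling was described in the right ventricle of mice after surgical overload and after sham surgery. The genes were the adrenergic receptors Adrb1, Adra1a and Adra1b, the anchor protein Akap5, the adenylyl cyclases Adcy5 and Adcy6, the G protein subunit Gnas and the receptor kinase Adrbk1, which now has the symbol Grk2 and is called so below. They were chosen by the gene name that the array design gives to a probe, which found 15 of the 55681 probes for 8 of the 23608 named genes. Of the 15 probes, 11 were detected well above background throughout 1 group or more and were tested. Each of the 8 genes had at least 1 such probe, so 8 of the 12578 genes tested were members.

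Total RNA of the right ventricle was hybridised to 1-colour arrays, 1 array for each of 24 samples. PSPI is an operation after which the right ventricle works against raised pressure and volume, and its samples were taken at month 1 (5 samples), month 2 (5) and month 3 (4), against 10 samples of sham surgery. All samples share the strain label M/FVB/10-12, which the labels do not explain, and no genetic change is named. The titles give sham samples no month, so every month was set against the same 10 shams, and comparisons with sham therefore share their control arrays. The study's design text counts 4 to 5 control ventricles, fewer than the 10 sham arrays, and whether some sham arrays repeat a ventricle is not given in the sources used here. If they do, n = 10 overstates the number of independent shams and the p-values against Sham are too small.

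Noradrenaline and adrenaline act on cardiac muscle mainly through the beta1 receptor, whose Gs protein switches on adenylyl cyclase. The cAMP made there activates protein kinase A, which phosphorylates calcium channels and calcium-handling proteins, and anchor proteins hold the kinase near its targets. Alpha1 receptors work through another G protein, Gq, and receptor kinases such as Grk2 mark occupied receptors for arrestin binding, which ends their signal, while in heart failure the beta1 receptor is known to decline.

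The probes on which the results turn are shown first, because 2 genes have probes that read differently. Each probe has 60 bases. The Adrb1 probe 1 lies at chr19:56799215-56799274 on the plus strand of mm9, at base 2353 of the transcript record the array design names, and Adrb1 probe 2 at chr19:56797242-56797301, at base 380. The 2 Adra1b probes lie at chr11:43589067-43589126 and chr11:43588147-43588206 on the minus strand, and the Akap5 probe at chr12:77434981-77435040 on the plus strand. Exon and UTR were not assigned here. Except for Adrb1 probe 2, the last 30 bases are given, 5′ to 3′, and capitals mark runs of at least 6 T.
Adrb1 probe 1, last 30 bases: attgtaaaattcatagaagttgttaacttg
Adrb1 probe 2: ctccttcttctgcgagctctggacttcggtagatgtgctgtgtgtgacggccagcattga
Adra1b probe 1, last 30 bases: tcttctctctctgtatatacataaaatgag
Adra1b probe 2, last 30 bases: aatgtaatagcaatgTTTTTTcTTTTTTaa
Akap5 probe 1, last 30 bases: aaattagtactactgtgactcaaaagctga
The 2 Adra1b probes also differ in base content, with G and C at 35% of the bases in probe 2 and 46.7% in probe 1.

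Several features of the arrays that the labels do not give stood beside the comparisons. All 6 markers of ventricular muscle were well above background on all 24 arrays. Markers of atrial muscle were present unevenly: Myl7, the atrial regulatory light chain, ran from -3.84 to 2.19 in PSPI month 1, from -4.67 to -0.47 in month 2, from -7.27 to -5.92 in month 3 and from -7.89 to 3.53 in Sham, and the summed list of 4 measured atrial markers from 1.28 to 6.56, 4.72 to 6.41, 4.93 to 5.73 and 0.22 to 7.61. In month 3 that sum is almost Nppa alone (4.92 to 5.70), which is also a load marker. Myl4 and Sln, like Myl7, averaged lowest in month 3 (-1.56 and -4.60, beside 0.87 and -1.17 in Sham). Bmp10, the remaining atrial marker, was not well above background on all arrays of any group. Myh7, the slow myosin that rises in loaded mouse ventricle, was at 1.62 to 2.52 on 9 arrays (Sham 1 to 5 and 10, month 1 samples 2 to 4) and at 4.67 to 5.91 on the other 15, which include Sham 6 to 9. Over the 30 most variable genes, arrays of 1 group nearly coincided in 7 of 276 pairs, 5 of them on different slides. In Sham these were samples 1 and 5, samples 3, 4 and 10, and samples 7 and 9. In PSPI they were month 2 samples 1 and 5 and month 3 samples 2 and 3. Over whole arrays the root mean square difference was 0.209 for Sham 3 and 4 and 0.286 for month 2 samples 1 and 5. The other such pairs were 0.317 to 0.377 apart. Month 1 sample 5 and month 2 sample 5, of different groups, were 0.316 apart. Whether the look-alike arrays are duplicates was not tested. The main results are repeated below with these sets averaged, which leaves 18 samples. The share of probes well above background ran from 36.1% to 56.1% per array, and the number of arrays limits the precision.

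Levels are log2 signals relative to each array's 75th percentile, and they can be compared between arrays for 1 probe but not between probes. A gene was called changed when limma's adjusted p, Benjamini-Hochberg over all genes tested, was under 0.05. A ± gives the standard error of a log2 change and the SD of a level.

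Of the 8 genes, each read by its brightest tested probe, Adrb1, Adra1a and Akap5 were called, all lower and mainly in month 3. Adra1a and Akap5 were dim, each well above background on 1 of 4 month 3 arrays. In the authors' deposited table, which is not background subtracted, the month 3 call remained for Adrb1 but not for Adra1a or Akap5. A second Adra1b probe rose in month 3 (log2 1.74 ± 0.36, adjusted p = 0.000751 over probes) and is described below. Over all months 2 of 8 were called, both lower, where 24.5% of the 12578 genes tested were called and 13.6% called lower. In month 1 none was called by limma and none had an unadjusted p under 0.05, where 0% of all genes were called and 12.1% had such a p. In month 2 the count was 2 of 8, both lower (14.6% of all genes called, 8.15% lower). In month 3 it was 3 of 8, all lower (39.0% called, 21.6% lower), and the same 3 lay wholly below Sham, as did 6.61% of all genes. With look-alike arrays averaged the counts were 2, 0, 0 and 3 for all months and months 1, 2 and 3 (8.06%, 0%, 0.350% and 21.9% of all genes).

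Between months, month 3 had 4 of 8 lower than month 1 (28.6% of all genes called, 16.6% lower), namely Adrb1, Adra1a, Akap5 and Adcy6, and Adrb1 and Adra1a did not overlap between these months (9.21% of all genes were lower without overlap). Adra1a entered the tests only because it was well above background on all arrays of month 1, its highest group, so its part in these counts is a description. Akap5 entered only through month 1 and Sham, its highest groups. Its part here and in the counts against Sham is a description too. Month 2 against month 1 and month 3 against month 2 had none by limma, where 0.0159% and 19.0% of all genes were called. An unadjusted p under 0.05 was found for 2 of 8 in each, beside 12.8% and 32.1% of all genes. The members' median log2 change was -0.14 over all months and 0.12, -0.27 and -0.24 in months 1 to 3, beside -0.012, 0.012, -0.019 and -0.036 over all genes. The shares called over all months and in month 3 are near those of all genes, so these counts show nothing particular to the 8 genes.

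Markers of other cell types moved in month 3 beside these genes, where 39.0% of all genes were called. Of 5 endothelial markers Cdh5 and Kdr were higher (0.37 ± 0.12, adjusted p = 0.0141, and 0.54 ± 0.17, adjusted p = 0.0167). Tek moved the other way without a call (-0.30 ± 0.12, adjusted p = 0.0502), and the rest were not called. The summed list ran from 1.84 to 2.46 in month 3 and from 1.36 to 1.97 in Sham. Of 4 smooth muscle markers Acta2 was higher (0.59 ± 0.22, adjusted p = 0.0431), with sums of 3.02 to 3.84 in month 3 and 2.44 to 3.31 in Sham. Of 5 fibroblast markers Dcn was higher (0.37 ± 0.12, adjusted p = 0.0187) and Tcf21 lower (-0.58 ± 0.20, adjusted p = 0.026), with sums of 5.34 to 5.41 in month 3 and 4.64 to 5.49 in Sham. Adipoq, 1 of 2 measured adipocyte markers, was lower (-1.87 ± 0.72, adjusted p = 0.0446), with sums of -4.98 to -4.21 in month 3 and -5.92 to -1.28 in Sham. The summed ventricular markers ran from 8.13 to 9.56 in month 3 and from 7.67 to 9.04 in Sham, and the 2 measured macrophage markers from 1.48 to 1.68 in month 3, within their Sham range. The sums add signals before the log2 step, so the brightest markers of a list lead them. The part of these cell types in the members' changes was not tested.

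Adrb1, the main cardiac beta receptor, was lower in overloaded ventricles and lowest in month 3. Over all 3 months weighted equally it was 1.64-fold lower than in Sham, a log2 change of -0.71 ± 0.14 (adjusted p = 0.00148). In PSPI month 1 its levels were -2.17, -1.97, -1.51, -1.73 and -2.24, in month 2 -2.35, -2.10, -2.33, -2.53 and -2.29, and in month 3 -2.39, -3.46, -3.31 and -2.58. The 10 Sham samples ran from -2.21 to -1.0 with a median of -1.57. All 4 samples of month 3 and 4 of 5 of month 2 lay below every Sham sample, while month 1 overlapped with Sham in 4 of 5 samples. Fewer cells of a type and less RNA per cell cannot be told apart in these whole-tissue samples.

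By month, Adrb1 fell 2.39-fold in month 3 (log2 -1.25 ± 0.20, adjusted p = 7.12e-05) and 1.56-fold in month 2 (log2 -0.64 ± 0.19, adjusted p = 0.0259). Month 1 differed from Sham by -0.24 ± 0.19, with a 95% interval of -0.63 to 0.14 and no call (adjusted p = 0.649). Month 3 was also lower than month 1, by -1.01 ± 0.23 (adjusted p = 0.00253), with all 4 samples below all 5, and was not called within slide 3 (-0.87 ± 0.40, adjusted p = 0.283). Between months 3 and 2 the difference of -0.61 ± 0.23 was not called (adjusted p = 0.0635). The month 3 call held with look-alike arrays averaged (-1.12 ± 0.25, adjusted p = 0.00528), with slide as a block (-1.30 ± 0.24, adjusted p = 0.000451) and within slide 3 (-1.35 ± 0.28, adjusted p = 0.0297). The call over all months held with averaging (adjusted p = 0.0311) and with the block (adjusted p = 0.00814), but not within slide 3 (-0.79 ± 0.27, adjusted p = 0.304).

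The month 2 call of Adrb1 was lost under several alternatives that moved its size little. It was lost when look-alike arrays were averaged (-0.66 ± 0.23, adjusted p = 0.126) or close arrays were (-0.62 ± 0.21, adjusted p = 0.0871), with no filter on dim probes (-0.64 ± 0.19, adjusted p = 0.0633) and within slide 3 (-0.53 ± 0.40, adjusted p = 0.856). It was also lost when month 2 sample 1, 3, 4 or 5 was left out (log2 -0.63, -0.64, -0.59 and -0.65, adjusted p = 0.0701, 0.0569, 0.07 and 0.0506). Adrb1 also varied with Myh7 inside the groups: it was at -2.21 to -1.67 in Sham 6 to 9 and at -1.61 to -1.0 in the other Sham samples, and at -2.24 and -2.17 in month 1 samples 5 and 1 and at -1.97 to -1.51 in the other 3. Of month 2, 1 of 5 samples lay within the range of the Sham samples of high Myh7, and all of month 3 (-3.46 to -2.39) lay below it. The part of Myh7 and of atrial tissue in the Adrb1 change was not tested. Adrb1 probe 2 was well above background on 6 of 24 arrays and gives no second reading of the gene.

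**Figure D1:**
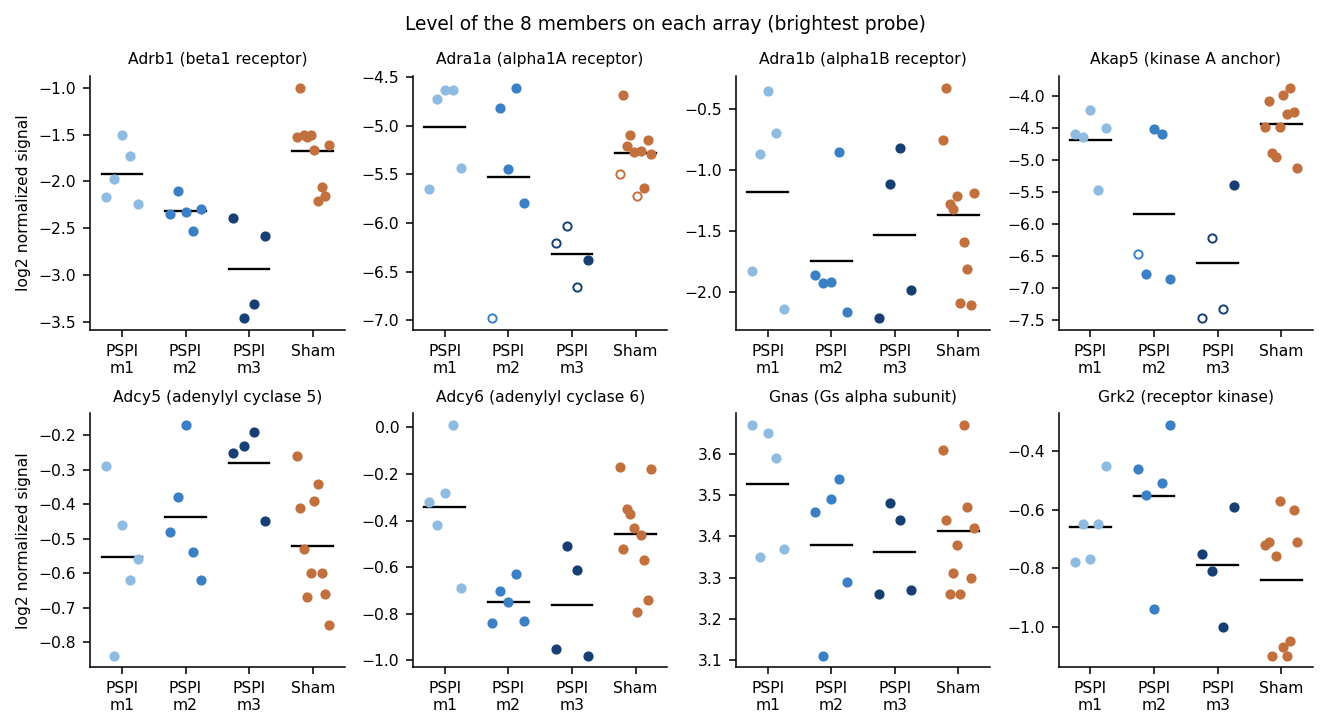
Level of each of the 8 genes (log2 normalized signal, brightest probe) on every array in PSPI months 1, 2 and 3 and in Sham. Each point is 1 array, open where the probe was not well above background, and bars are group means. All 4 month 3 points of Adrb1, Adra1a and Akap5 lie below all 10 Sham points, whereas the Gnas groups overlap throughout.

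Adra1a, the alpha1A receptor, was lower in month 3 alone among the months set against Sham. Its month 3 levels were -6.21, -6.03, -6.66 and -6.38, below all Sham samples (-5.72 to -4.69, median -5.27), a 2.05-fold difference (log2 -1.04 ± 0.29, adjusted p = 0.00815). Month 1 (0.27 ± 0.27, adjusted p = 0.756) and month 2 (-0.25 ± 0.27, adjusted p = 0.576) were not called. Month 3 differed from month 1 by -1.31 ± 0.33, a description since month 1 alone brought the probe into the tests, and by -0.07 ± 0.27 in the deposited table. The difference from month 2 was not called (-0.79 ± 0.33, adjusted p = 0.1).

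Adra1a lay near the limit of the array. It was well above background on 5 of 5 arrays of month 1, 4 of 5 of month 2, 1 of 4 of month 3 and 8 of 10 of Sham. Its month 3 call against Sham held with look-alike arrays averaged (-1.01 ± 0.33, adjusted p = 0.0396), with slide as a block (-1.27 ± 0.35, adjusted p = 0.00896) and within slide 3 (-1.12 ± 0.19, adjusted p = 0.0166). These repeats keep the same dim probe, which month 1 alone brought into the tests, and give no separate support. In the deposited table without background subtraction the direction turned (0.16 ± 0.24, adjusted p = 0.616), and normexp correction gave -0.52 ± 0.14 (adjusted p = 0.00458).

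Adra1b, the alpha1B receptor, read differently through its 2 probes. The brighter probe 1 averaged -1.18 ± 0.77 in PSPI month 1 (n = 5), -1.75 ± 0.51 in month 2 (n = 5), -1.54 ± 0.67 in month 3 (n = 4) and -1.37 ± 0.56 in Sham (n = 10), with no call in any month (month 3 against Sham -0.17 ± 0.35, adjusted p = 0.725). Probe 2 was at -2.68, -1.91, -1.18 and -1.12 in month 3, 3 of these 4 above every Sham sample (-4.39 to -2.60, median -3.10). Tested over all 21031 probes kept, it rose 3.33-fold in month 3 (log2 1.74 ± 0.36, adjusted p = 0.000751), where 39.9% of probes were called. In month 2 the same probe was lower than in Sham, at -5.19, -4.38, -4.59, -3.89 and -4.55 (log2 -1.06 ± 0.34, adjusted p = 0.0393), where 12.9% of probes were called. Probe 2 was also higher in month 3 than in month 1, by 1.78 ± 0.41 (adjusted p = 0.00266, 29.9% of probes called). That call was lost within slide 3 (2.55), which holds 1 month 1 sample.

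The 2 Adra1b probes stand on the same transcript, at base 2028 for probe 1 and base 2948 for probe 2 of the record the array design names. Month 3 lay wholly above month 2 for probe 2, with a difference of 2.80 ± 0.41 (adjusted p = 3.2e-05, 22.6% of probes called), against 0.21 ± 0.39 for probe 1 (adjusted p = 0.76 over genes). The rise of probe 2 in month 3 kept its call under all 10 other alternatives computed for it (1.15 to 2.07, largest adjusted p = 0.0196) and when any 1 array was left out (1.54 to 2.06). Its month 2 call was lost with normexp (-0.70 ± 0.24, adjusted p = 0.0609), in the deposited table (-0.65 ± 0.29, adjusted p = 0.159), with slide as a block (-1.28 ± 0.50, adjusted p = 0.117) and within slide 3 (-1.08 ± 0.58, adjusted p = 0.901). It was also lost when close or look-alike arrays were averaged (-0.93 ± 0.37, adjusted p = 0.145, and -0.90 ± 0.40, adjusted p = 0.226) and when any of month 2 samples 1, 2, 3 and 5 or Sham 1 to 5 and 10 was left out (largest adjusted p = 0.138). Which transcript each probe reads in this tissue was not tested, so no direction is given for the gene.

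Outside month 3, both Adra1b probes varied with Myh7. Probe 1 lay at -2.11 to -1.59 in Sham 6 to 9 and at -1.32 to -0.32 in the other Sham samples, and probe 2 at -4.39 to -3.88 in Sham 6 to 9 and at -3.12 to -2.60 in the others. In month 1, samples 1 and 5 had -1.83 and -2.14 for probe 1, and samples 2 to 4 had -0.87 to -0.35. Month 2 sample 4 stood alone, at -0.85 for probe 1 against -2.17 to -1.86 in the other 4. These ranges were read from the measured values and carry no test.

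**Figure D2:**
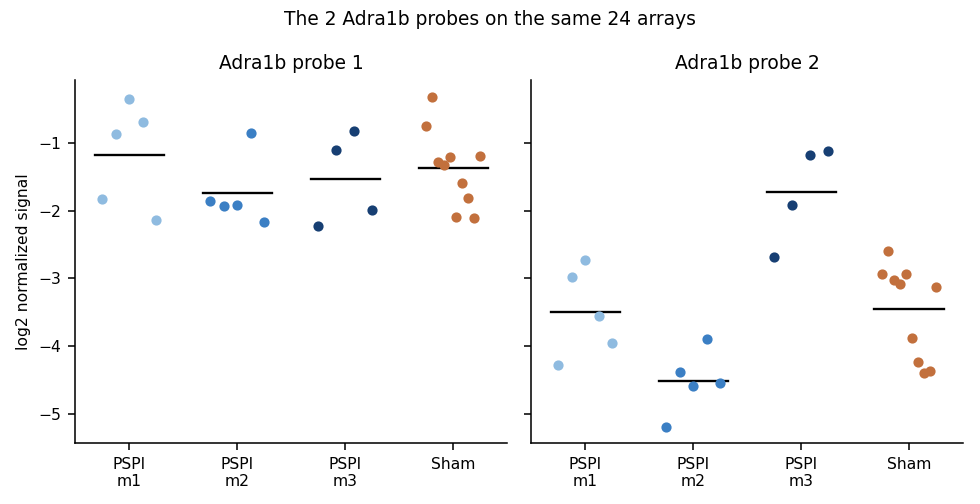
Level (log2 normalized signal) of Adra1b probe 1 and probe 2 on each of 24 arrays in PSPI months 1, 2 and 3 and in Sham, with bars at the group means. Month 3 is the highest group for probe 2, with a mean of -1.72 against -3.46 in Sham, and lies within the Sham range or close to it for probe 1.

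**Figure D3:**
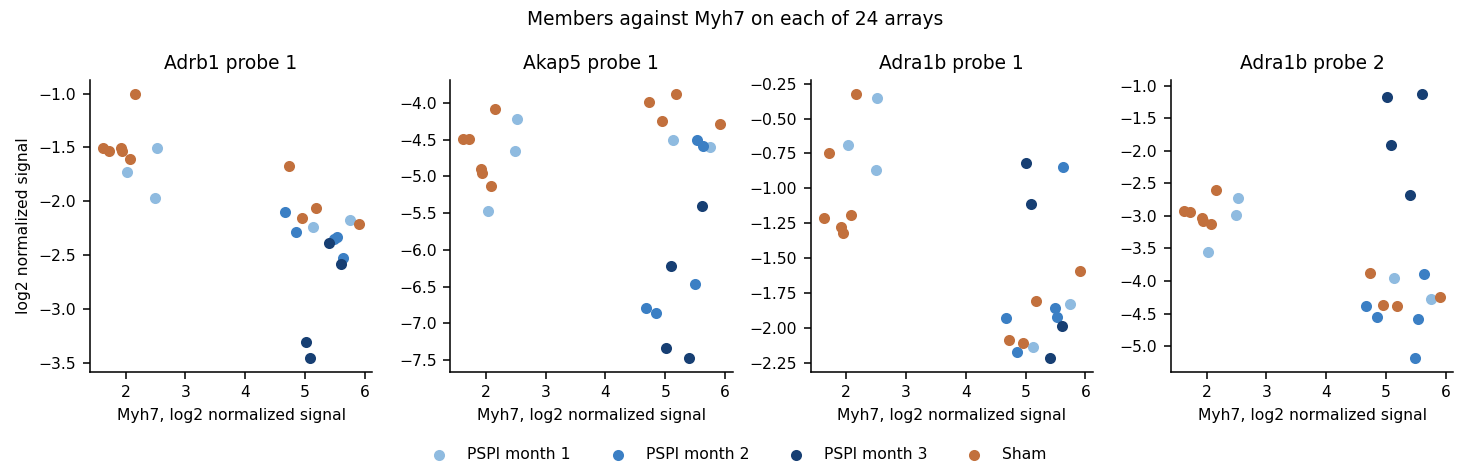
Levels of Adrb1, Akap5 and the 2 Adra1b probes against the level of Myh7, both log2 normalized signal, with 1 point per array coloured by group. Arrays fall into Myh7 levels of 1.62 to 2.52 and 4.67 to 5.91. Adrb1 and Adra1b are lower in the Sham samples with high Myh7, and Akap5 is not.

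No call was made for Gnas, Adcy5, Adcy6 or Grk2 in any month against Sham. Gnas, which encodes the stimulatory G protein subunit, was at 3.35 to 3.67 in PSPI month 1, 3.11 to 3.54 in month 2, 3.26 to 3.48 in month 3 and 3.26 to 3.67 in Sham. Its differences from Sham were 0.12 ± 0.09, -0.03 ± 0.09 and -0.05 ± 0.09 in months 1 to 3, and the 95% interval in month 3 was -0.24 to 0.15. Month 3 was not called against month 1 (-0.16 ± 0.11, adjusted p = 0.257), but was with the percentile over all probes (-0.30 ± 0.11, adjusted p = 0.0463), with quantile normalization (-0.22 ± 0.08, adjusted p = 0.0262) and with normexp (-0.21 ± 0.08, adjusted p = 0.0436). The other 3 Gnas probes, which the array design ties to other transcripts of the locus, were well above background on 2, 0 and 0 of 24 arrays.

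Adcy5 and Adcy6 are the main adenylyl cyclases of heart muscle. Adcy6 averaged -0.34 ± 0.25 in month 1 (n = 5), -0.75 ± 0.09 in month 2 (n = 5), -0.76 ± 0.24 in month 3 (n = 4) and -0.46 ± 0.21 in Sham (n = 10). Its differences from Sham in month 2 (-0.29 ± 0.11, adjusted p = 0.0836) and month 3 (-0.31 ± 0.12, adjusted p = 0.0509) fell short of the threshold. The month 3 difference passed it with the percentile over all probes (-0.47 ± 0.12, adjusted p = 0.00369), with quantile normalization (adjusted p = 0.0398) and without Sham 6, 8 or 9, month 1 sample 4 or 5 or month 3 sample 2 (adjusted p = 0.0283 to 0.0493). Month 3 was lower than month 1, by -0.42 ± 0.14 (adjusted p = 0.0258). That call was lost within slide 3 (-0.01 ± 0.29, adjusted p = 0.988), with slide as a block (-0.39 ± 0.15, adjusted p = 0.0818), with normexp, in the deposited table and with no filter on dim probes (adjusted p = 0.0514, 0.0904 and 0.0574), and without month 1 sample 4 or month 3 sample 1 or 4 (adjusted p = 0.0799, 0.0633 and 0.0908). Adcy6 in Sham 6 to 9 ran from -0.79 to -0.46 and in the other Sham samples from -0.52 to -0.17.

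Adcy5 had 3 measured probes and no call on any of them. Probe 1 was at -0.25, -0.23, -0.19 and -0.45 in month 3, against -0.75 to -0.26 in Sham with a median of -0.56. Its difference of 0.24 ± 0.10 (adjusted p = 0.0676) passed the threshold with slide as a block (0.41 ± 0.11, adjusted p = 0.00975) and without Sham 1 or month 3 sample 4 (adjusted p = 0.0393 and 0.0489). Month 3 against month 1 was called for this probe only with slide as a block (0.34 ± 0.11, adjusted p = 0.0417) and without month 1 sample 1 (0.34 ± 0.12, adjusted p = 0.0347). Probes 2 and 3 differed from Sham in month 3 by 0.15 ± 0.10 (adjusted p = 0.239) and -0.05 ± 0.13 (adjusted p = 0.79). The 3 probes lie near each other on chromosome 16 and did not give 1 direction.

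Akap5, which anchors protein kinase A, phosphatase and adenylyl cyclase at the plasma membrane, had a larger log2 change than the other 7 genes in month 3, although with normexp correction or in the deposited table Adrb1 changed more. Its level averaged -4.69 ± 0.47 in PSPI month 1 (n = 5), -5.84 ± 1.19 in month 2 (n = 5), -6.61 ± 0.99 in month 3 (n = 4) and -4.44 ± 0.43 in Sham (n = 10). Over all months it was 2.41-fold lower than in Sham (log2 -1.27 ± 0.29, adjusted p = 0.00409). It fell 4.49-fold in month 3 (log2 -2.17 ± 0.42, adjusted p = 0.000397) and 2.64-fold in month 2 (log2 -1.40 ± 0.39, adjusted p = 0.0199). Month 1 was not called (-0.24 ± 0.39, adjusted p = 0.861). These differences are a description, since Sham and month 1, its highest groups, alone brought the probe into the tests.

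The samples of month 2 fell into separate levels for Akap5. Samples 1, 2 and 5 were at -6.47, -6.79 and -6.86, and samples 3 and 4 at -4.51 and -4.59, within the Sham range of -5.13 to -3.87. Month 3 had -7.48, -6.22, -7.34 and -5.40, all below every Sham sample. In contrast to Adrb1, Akap5 was not lower in the Sham samples of high Myh7, where it ran from -4.28 to -3.87 against -5.13 to -4.08 in the others. Month 1 samples overlapped with Sham in 4 of 5.

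Like Adra1a, Akap5 was dim, and its size of change depends on the background correction. The probe was well above background on 5 of 5 arrays of month 1, 4 of 5 of month 2, 1 of 4 of month 3 and 10 of 10 of Sham, so it entered the tests through the groups where it was high. In month 3 the change was -0.91 ± 0.18 with normexp correction (adjusted p = 0.00047) and -0.27 ± 0.31 in the deposited table, which is not background subtracted (adjusted p = 0.499). The repeats that follow keep the same probe and its filter, so they are a description too and give no separate support. In month 3 the limma threshold was passed with look-alike arrays averaged (-2.27 ± 0.51, adjusted p = 0.00605) and with slide as a block (-2.01 ± 0.53, adjusted p = 0.00719). It was not passed within slide 3 (-1.70 ± 0.49, adjusted p = 0.0628). The all-months call held with averaging (adjusted p = 0.0369) and was lost in the deposited table (-0.26 ± 0.22, adjusted p = 0.381), with slide as a block (-1.13 ± 0.45, adjusted p = 0.0854), within slide 3 (-1.27 ± 0.46, adjusted p = 0.332) and without month 3 (-0.82 ± 0.29, adjusted p = 0.0717). The month 2 call was lost in the deposited table (-0.50 ± 0.29, adjusted p = 0.264), with close arrays averaged (-1.25 ± 0.42, adjusted p = 0.0803), with look-alike arrays averaged (-1.36 ± 0.47, adjusted p = 0.127), with the block (-1.25 ± 0.58, adjusted p = 0.168), within slide 3 (-2.23 ± 0.69, adjusted p = 0.814), and without month 2 sample 1, 2 or 5 (adjusted p = 0.0758, 0.0542 and 0.0695). Month 3 was lower than month 1 by -1.92 ± 0.47 (adjusted p = 0.00469), but not called in the deposited table (-0.27 ± 0.35, adjusted p = 0.619) or within slide 3 (-1.82 ± 0.69, adjusted p = 0.218).

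Grk2, the kinase that tags active beta receptors, averaged -0.66 ± 0.13 in month 1 (n = 5), -0.55 ± 0.23 in month 2 (n = 5), -0.79 ± 0.17 in month 3 (n = 4) and -0.84 ± 0.21 in Sham (n = 10). In month 2, 4 of 5 samples (-0.46, -0.55, -0.51 and -0.31) lay above every Sham sample, whose highest was -0.57, and sample 3 was at -0.94. The difference of 0.28 ± 0.11 was not called (adjusted p = 0.0812), but was without month 2 sample 3 (0.38, adjusted p = 0.0358). Month 3 (0.05 ± 0.12, adjusted p = 0.753) had a 95% interval of -0.19 to 0.30.

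**Figure D4:**
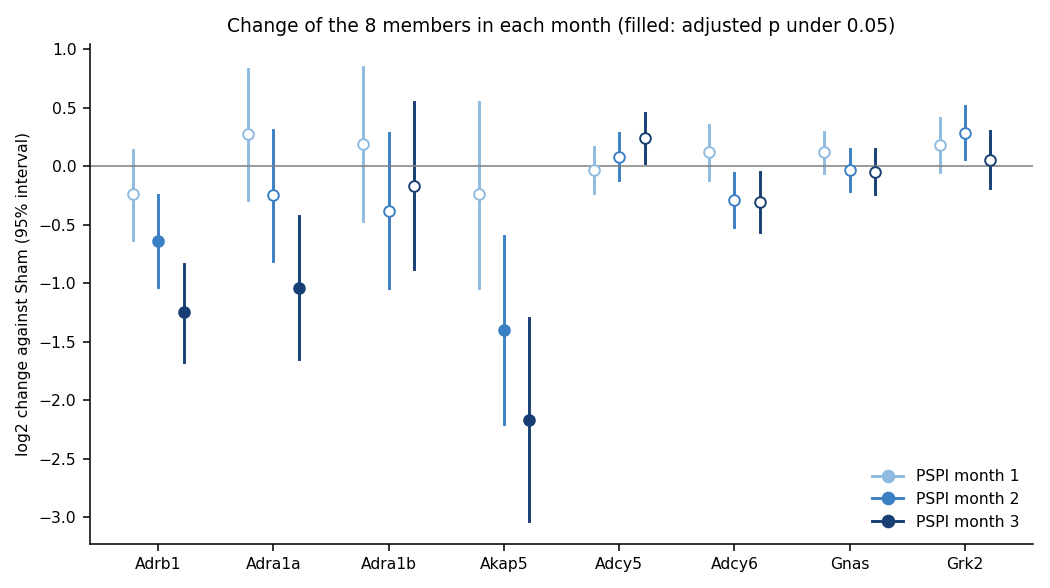
Log2 change of each of the 8 genes in PSPI months 1, 2 and 3 against Sham, with 95% intervals from limma. Filled points passed the adjusted threshold: Adrb1 and Akap5 in months 2 and 3 and Adra1a in month 3. Adrb1 ran through -0.24, -0.64 and -1.25 and Akap5 through -0.24, -1.40 and -2.17 in months 1 to 3.

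Other scalings and background corrections moved the median of all genes in month 3, and moved single genes unequally. The median change of all genes was -0.036 as reported. It was -0.198 when the percentile was taken over all probes, -0.128 after quantile normalization, -0.104 after normexp correction and 0.110 in the deposited table. Higher genes made up 44.7%, 22.9%, 30.2%, 32.4% and 66% of the calls in the same order. Over all months that share was 44.6%, 25%, 32.1%, 33.8% and 62.7%. Relative to these medians, Adrb1 changed in month 3 by -1.22, -1.22, -1.25, -0.99 and -0.94, Akap5 by -2.13, -2.13, -2.75, -0.81 and -0.38, and Adra1a by -1.0, -1.0, -1.54, -0.41 and 0.05.

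The other genes of the pathway were read from 9 lists of 112 genes, of which 89 were measured. Over all months 14 of 89 were called (15.7%, beside 24.5% of all genes), 3 higher and 11 lower. Month 1 had none by limma, with 5 (5.62%) at an unadjusted p under 0.05, beside 12.1% of all genes. Month 2 had 5 (5.62%, beside 14.6%), 1 higher and 4 lower, and month 3 had 35 (39.3%, beside 39.0%), 15 higher and 20 lower. With look-alike arrays averaged the counts were 7, 0, 0 and 17, beside 8.06%, 0%, 0.350% and 21.9% of all genes. Leaving out single arrays moved the count over all months to 22 (without month 3 sample 1) and 9 (without Sham 3), and that of month 3 to 22 (without month 3 sample 3). The median change in month 3 was 0.01 for the 89 genes and -0.036 for all genes.

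Among the other adrenergic receptors, Adrb3, Adra1d, Adra2a, Adra2b and Adra2c were not well above background on all arrays of any group and were not tested.

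Genes that make noradrenaline, a mark of sympathetic nerves, moved in different directions in month 3. Of 5 measured genes of noradrenaline synthesis, uptake and breakdown, 4 were called (80.0%, beside 39.0% of all genes). Of these, 3 fell and 1 rose, with a list median of -0.73 beside -0.036 for all genes. Dbh, which converts dopamine to noradrenaline, fell by 1.35 on the log2 scale (SE 0.32, adjusted p = 0.00249), with -1.76, -2.44, -2.19 and -1.08 in month 3 and -1.26 to 0.32 in Sham. Ddc, the decarboxylase before it, fell by 1.35 (SE 0.28, adjusted p = 0.000728). Th, the first enzyme of the path, rose by 0.88 ± 0.28 (adjusted p = 0.0178). With look-alike arrays averaged 2 of these 4 calls remained, Ddc and Dbh.

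Dbh was highest in the Sham samples with the most atrial signal, and the other nerve markers did not share 1 direction with it. Its highest Sham levels, 0.32, 0.28 and 0.08, were those of Sham 3, 4 and 10, which had the highest Myl7 (3.52, 3.48 and 3.53). Among the other Sham samples Dbh did not follow Myl7. Sham 1 and 5, with Myl7 at -7.75 and -7.57, had Dbh at -0.65 and -0.40, and Sham 6, with Myl7 at -3.59, had -0.73. Of the 8 markers of sympathetic neurons and Schwann cells, 5 were measured. Of these 2 rose and 2 fell in month 3, where 39.0% of all genes were called. Th and Uchl1 (2.47 ± 0.57, adjusted p = 0.0018) were higher and Dbh was among the lower. The summed nerve markers ran from -0.72 to 0.00 in month 1, -0.96 to 0.00 in month 2, -0.83 to -0.18 in month 3 and -0.54 to 0.69 in Sham. Their part in the changes of the members was not tested.

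Protein kinase A, its inhibitors and other cAMP sensors had 6 of 13 measured genes called in month 3 (46.2%, beside 39.0% of all genes), 3 higher and 3 lower. Pkia, a peptide inhibitor of the kinase, fell by 0.94 on the log2 scale (SE 0.11, adjusted p = 2.73e-06), and averaged -1.50 ± 0.31 in month 3 (n = 4) and -0.56 ± 0.16 in Sham (n = 10). Bves, a cAMP-binding Popeye protein of muscle membranes, fell by 0.67 (SE 0.09, adjusted p = 8.05e-06). Both lay below every Sham sample in 4 of 4 arrays, and both were lower in month 3 than in month 2 as well (Pkia -0.73 ± 0.13, adjusted p = 0.000429, Bves -0.71 ± 0.10, adjusted p = 3.87e-05). Averaging look-alike arrays left 3 of the 6 calls, with Pkia and Bves among them.

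Among targets of the kinase, the phosphatases and the CREB family, 7 of 21 measured genes fell and 1 rose in month 3 (38.1% called, beside 39.0% of all genes). Pln, the phospholamban that restrains the calcium pump until phosphorylated, fell by 0.91 on the log2 scale (SE 0.17, adjusted p = 0.000289), and Cacnb2, a subunit of the L-type calcium channel, by 0.79 (SE 0.15, adjusted p = 0.0004). Ryr2, the calcium release channel, was lower in month 3 than in month 1 (log2 -0.87 ± 0.20, adjusted p = 0.00243). Pln and Cacnb2 lay below every Sham sample in 4 of 4 arrays, and the list median was -0.17. With look-alike arrays averaged 4 of the 8 calls remained, Pln (adjusted p = 0.00848) and Cacnb2 (adjusted p = 0.00529) among them.

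**Figure D5:**
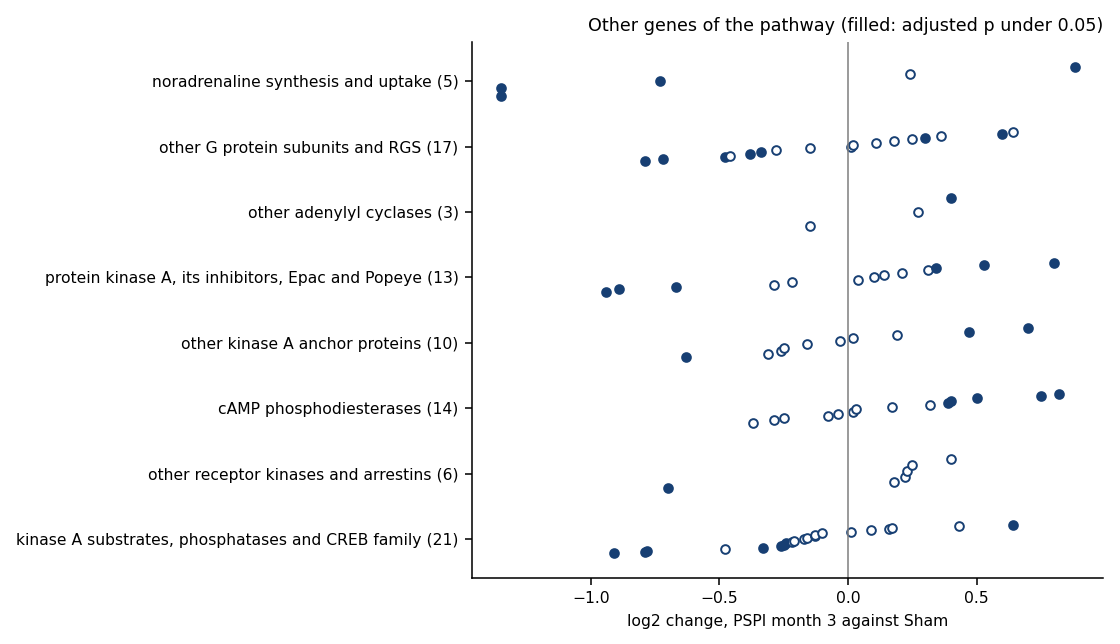
Log2 change in PSPI month 3 against Sham of the 89 other measured pathway genes, 1 point each, by list with the number measured in brackets. Filled points passed the adjusted threshold, 15 higher and 20 lower. Called phosphodiesterases all lie to the right of 0.

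The cAMP phosphodiesterases, which break cAMP down, had 5 of 14 measured genes called in month 3 (35.7%, beside 39.0% of all genes), all higher, with a list median of 0.10 beside -0.036 for all genes. Pde4c had the largest rise (0.82 ± 0.20, adjusted p = 0.00286) and was higher in month 3 than in month 2 too (0.96 ± 0.22, adjusted p = 0.00455). The others were Pde1b (0.40 ± 0.13) and, named after their values were seen, Pde7b (0.75 ± 0.21), Pde10a (0.50 ± 0.17) and Pde7a (0.39 ± 0.14). Averaging look-alike arrays left 2 of the 5 calls, Pde4c and Pde7b.

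Anchor proteins other than Akap5 had calls in both directions. Of 10 measured, 1 fell and 2 rose in month 3: Akap1, the mitochondrial anchor, fell by 0.63 on the log2 scale (SE 0.13, adjusted p = 0.000667), while Akap12, known as gravin, rose (0.70 ± 0.15, adjusted p = 0.000958). The third call was Pakap, listed as Akap2 (0.47 ± 0.18, adjusted p = 0.0413). Akap7, an anchor near phospholamban, was lower in month 2 (-0.28 ± 0.07, adjusted p = 0.0127), and not called there with look-alike arrays averaged (adjusted p = 0.123). In month 3 it differed from Sham by -0.03 ± 0.08 (adjusted p = 0.786).

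Of 3 other measured cyclases, Adcy4 alone was called in month 3 (33.3%, beside 39.0% of all genes). It was higher by 0.40 ± 0.13 (adjusted p = 0.0178), and that call was lost with look-alike arrays averaged (0.45, adjusted p = 0.0609). G protein subunits and their regulators had 7 of 17 measured genes called in month 3 (41.2%, beside 39.0% of all genes), 2 higher and 5 lower. Gnai2, an inhibitory alpha subunit that opposes Gs, rose by 0.60 ± 0.13 (adjusted p = 0.000862), with 2.15 ± 0.29 in month 3 (n = 4) and 1.55 ± 0.18 in Sham (n = 10). Gng5, a gamma subunit, fell by 0.48 (SE 0.10, adjusted p = 0.000497). Averaging look-alike arrays left 3 of the 7 calls, with Gnai2 (adjusted p = 0.0124) and Gng5 (adjusted p = 0.00911) among them.

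Of 6 other receptor kinases and arrestins, Grk3, a near relative of Grk2, alone was called in month 3 (16.7%, beside 39.0% of all genes). Its change was -0.70 ± 0.20 (adjusted p = 0.00741). Grk3 was also lower in month 2 (-0.63 ± 0.18, adjusted p = 0.0236), where Arrb2, an arrestin, rose (0.36 ± 0.10, adjusted p = 0.0224). Both month 2 calls were lost with look-alike arrays averaged (adjusted p = 0.138 and 0.139), and so were those of the regulator Rgs5 (-0.35 ± 0.11, adjusted p = 0.0331) and the cyclase Adcy9 (-0.40 ± 0.12, adjusted p = 0.0341).

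Over all months the 14 called genes included Ppp1cc, a catalytic subunit of protein phosphatase 1, which was lower by a small amount (-0.20 ± 0.04, adjusted p = 0.00268) with 13 of 14 samples below every Sham sample. In month 1 it had the smallest p of the lists without passing the test (-0.22 ± 0.06, adjusted p = 0.133). Ppp3ca, a calcineurin subunit (-0.18 ± 0.06, adjusted p = 0.0391), and Rgs3 (-0.21 ± 0.07, adjusted p = 0.0403) were lower too, and both calls were lost with look-alike arrays averaged. Rapgef3, the cAMP sensor Epac1, was higher in month 3 than in month 1 (0.45 ± 0.11, adjusted p = 0.00398).

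Adrb1 and Akap5 were set against all other genes by the root mean square difference of their centred log2 levels over the 24 arrays. Nearest to Adrb1 were Ppp1r3d, a glycogen-targeting subunit of protein phosphatase 1 (0.199), the transcription factor gene Mitf (0.220) and Alox5, which encodes 5-lipoxygenase (0.222), beside a median of 0.60 over 12565 genes. Their month 3 changes were -1.07 for Ppp1r3d, -1.10 for Mitf and -0.88 for Alox5. Nearest to Akap5 were Ntf3, the neurotrophin-3 gene (0.696), Klra8, a natural killer cell receptor gene (0.706), and Ky (0.709), beside a median of 1.10. The distance grows with a gene's own spread (SD 1.11 for Akap5 and 0.57 for Adrb1), so it does not rank closeness between the 2 genes.

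The 2 genes called over all months are shown with the 250 bases before their start, from RefSeq on GRCm38.p6. Capitals mark the cAMP response half-site TGACG on either strand, which the full site TGACGTCA contains. The Adrb1 stretch is chr19:56721867-56722116 and the Akap5 stretch chr12:76324641-76324890, both on the plus strand.
Adrb1 promoter: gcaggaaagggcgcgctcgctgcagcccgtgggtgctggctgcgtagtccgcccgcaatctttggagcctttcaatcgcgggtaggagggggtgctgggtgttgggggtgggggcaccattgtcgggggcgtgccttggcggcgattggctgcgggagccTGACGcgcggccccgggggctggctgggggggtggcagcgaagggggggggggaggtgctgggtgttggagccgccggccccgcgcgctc
Akap5 promoter: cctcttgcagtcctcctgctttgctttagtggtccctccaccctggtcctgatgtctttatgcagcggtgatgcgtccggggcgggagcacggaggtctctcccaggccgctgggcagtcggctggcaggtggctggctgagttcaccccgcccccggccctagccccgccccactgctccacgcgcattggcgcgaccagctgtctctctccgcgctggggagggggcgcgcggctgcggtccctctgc
The Adrb1 stretch holds 1 half-site, whose first base is at position -90 from the start, and the Akap5 stretch none. Of 32851 promoters of the table, 17.8% hold the half-site and 1.55% the full site in the same stretch. A stretch was found for 5 of the 8 members, Adrb1, Adra1b, Akap5, Adcy5 and Gnas, in 9 promoters, none with the full site. The half-site also lay on the opposite strand in partly overlapping promoters of Gnas (-38, -57 and -216), a gene not called against Sham.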

How the data were processed

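Right ventricular RNA was labelled with Cy3 and read on 1-colour Agilent arrays with Agilent Feature Extraction 10.7.3.1, per the submitters' processing notes. The deposited scanner files hold intensity values that Feature Extraction had background subtracted. The authors' deposited table of the whole series also holds intensity values, which match the scanner files' net signal on every array at all 62976 spots (tolerance 0.001, relative), so they are neither scaled nor background subtracted. Coordinates are those of mm9 per the file headers.

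From these, control and outlier spots were left out, spots of a probe averaged, and log2 signals centred on each array's 75th percentile of the 16937 probes that all 24 arrays flagged well above background. The 21031 probes so flagged throughout 1 group or more were kept, and the brightest represents a gene. Probes were named through a gene table of GRCm38.p6 by accession (26582) or current (2602) or older symbol (492), and otherwise by the file (1717 probes), and 24288 had no name.

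The groups come from the titles, whose replicate numbers pair months 2 and 1 alone by the correlation of same-numbered arrays. No label states that samples of a group came from different animals. The p-values therefore reflect only how these samples vary, and that variation may be technical. There were 3 slides, of which slide 1 held 7 Sham and 1 month 1, slide 2 held 3 month 1, 4 month 2 and 1 month 3, and slide 3 held 1 month 1, 1 month 2, 3 month 3 and 3 Sham samples.

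Genes were tested with limma 3.58.1 in R 4.3.3 (lmFit and eBayes, two-sided) in 1 model of 4 group means with Benjamini-Hochberg adjustment, checked on simulated data. The members, the pathway lists and the tests were chosen with earlier results of these data known. Named are the 8 members and, of the pathway lists, up to 12 called genes over all months and 8 in each other comparison by smallest p (not all are printed), plus the 3 genes most like each member called over all months. Adcy4, Pakap, Th, Uchl1, Pde7a, Pde7b, Pde10a, Nppa, Myl7, Myl4, Sln, Bmp10, Cdh5, Kdr, Tek, Acta2, Dcn, Tcf21 and Adipoq were named outside that rule. Results for 2 genes are not reported here. Alternatives were 4 other scalings or backgrounds, probe and filter rules, arrays averaged, slide and replicate blocks, slide 3 alone, and each array left out. Averaging look-alike arrays (root mean square difference under 0.4 over the 30 most variable genes) was chosen after seeing the data.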

Additional observations from a re-analysis of the deposited data

Results flagged for a closer look

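Adra1b probe 1 had 1 sample far from the others of its group: month 2 sample 4 was at -0.85, and the nearest of the other 4 at -1.86. Among 44 sets of values checked this was the only such sample. By chance about 1 in 20 sets would hold one, so 1 among 44 sets is not unusual.

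Effects against Sham differed between months, by a direct limma test of the later month against the earlier, for 5 probes. Month 3 was lower than month 1 for Adrb1 (-1.01, adjusted p = 0.00232 over probes), Akap5 (-1.92, adjusted p = 0.00428), Adcy6 (-0.42, adjusted p = 0.0261) and Adra1a (-1.31), whose probe entered the tests only through month 1. The Akap5 probe entered only through month 1 and Sham. These 4 calls were lost within slide 3, and those of Akap5, Adra1a and Adcy6 also in the deposited table. For Adra1b probe 2, month 3 was higher than month 2 by 2.80 (adjusted p = 3.2e-05) and higher than month 1 by 1.78 (adjusted p = 0.00266). The call against month 1 was also lost within slide 3 (2.55), which holds 1 month 1 sample.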

How the results depend on the processing

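Adrb1 in month 3 kept its direction and its call under all 12 other settings (-1.55 to -0.83) and with each array left out (-1.43 to -1.08). The count of members called over all months was 1 instead of 2 in the deposited table, with slide as a fixed block, with the replicate block and without month 3, and 0 within slide 3, where fewer arrays enter. In month 2 it was 1 instead of 2 in the deposited table, with no filter on dim probes and with the slide block, and 0 with close arrays averaged, with look-alike arrays averaged and within slide 3. In month 3 it was 1 instead of 3 in the deposited table. For month 3 against month 2 it was 3 instead of 0 with the percentile over all probes and with quantile normalization, and 1 with normexp, with the mean of a gene's probes and with close arrays averaged. For month 3 against month 1 it was 1 instead of 4 in the deposited table and 0 within slide 3. With single arrays left out these counts ran from 0 to 2 in month 2 and from 0 to 1 for month 3 against month 2. Pathway genes called over all months were 8 without the filter, 9 with close arrays averaged, 7 with look-alike arrays averaged, 0 within slide 3 and 4 without month 3, instead of 14. In month 2 they were 1 without the filter and 0 with close or look-alike arrays averaged and within slide 3, instead of 5, and in month 3 they were 17 with look-alike arrays averaged and 10 within slide 3, instead of 35. With single arrays left out they ran from 9 to 22 over all months, from 1 to 13 in month 2 and from 22 to 38 in month 3. The month 2 count was 1 without month 2 sample 1 or 4, 2 without sample 3, 3 without sample 5, 8 without sample 2, 3 without Sham 2 or 5, 10 without month 3 sample 1, 11 without Sham 7 and 13 without Sham 8.

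Directions turned for values that were not called, except Adra1a in month 3, and the cause was not tested. In the deposited table Adra1a was 0.16 over all months, 0.09 in month 2 and 0.16 in month 3, and Gnas -0.02 over all months. Gnas over all months was -0.06 with the percentile over all probes and with normexp, -0.04 with quantile normalization, -0.00 with close arrays averaged and -0.01 within slide 3. With the mean of a gene's probes Adra1b was 0.05 over all months, 0.78 in month 3 and 0.71 for month 3 against month 1, and Adcy5 0.09 in month 1. With slide as a fixed block month 1 gave -0.10 for Adra1a, -0.09 for Adra1b and 0.07 for Adcy5, month 2 gave 0.02 for Gnas, and month 3 gave 0.02 for Gnas and -0.11 for Grk2. Within slide 3 month 1 gave -0.20 for Adra1a, -0.63 for Adra1b, 0.12 for Akap5, 0.11 for Adcy5 and -0.24 for Adcy6, month 3 gave 0.20 for Adra1b, 0.03 for Gnas and -0.17 for Grk2, and month 3 against month 1 gave 0.83 for Adra1b and 0.02 for Gnas. Grk2 in month 3 was -0.11 with the percentile over all probes, and Adra1a over all months 0.01 without month 3. With single arrays left out, Adcy5 in month 1 ran from -0.10 to 0.04, Adra1a in month 2 from -0.48 to 0.11, Adra1b from -0.01 to 0.43 in month 1 and from -0.41 to 0.06 in month 3, Gnas from -0.00 to 0.04 over all months and from -0.07 to 0.03 in month 2, and Grk2 in month 3 from -0.01 to 0.12.

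All 5 same-numbered pairs of months 2 and 1 correlated above 0.1 (0.187 to 0.514), and with the replicate block no member was called between these months by limma, as without it. In the other group pairs same-numbered samples did not all deviate together: over all, 9 of 27 pairs correlated above 0.1 (lowest -0.447), and 3 of 19 arrays were closest to an array of their own number. With the replicate block, pathway genes called were 24 over all months and 26 in month 2, 1 member was called over all months, and Adra1b was -0.20 in month 1. The block changed no call of Adrb1 over all months, in month 2 or in month 3, and ended those of Akap5 over all months and in month 2 (adjusted p = 0.0578 and 0.0876). Adcy6 passed with it in month 2 (-0.38, adjusted p = 0.0392) and month 3 (-0.43, adjusted p = 0.0212).

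Dim probes limit the sizes given for Akap5 and Adra1a. Slide, Myh7 level and month are partly tied, since slide 2 held no Sham.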
